A study of Mus musculus with 8 samples.

Results

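The genes described here encode the subunits of the mitochondrial respiratory chain and of ATP synthase that are transcribed in the nucleus, measured in mouse cheek skin after injection of BNP, the B-type natriuretic peptide. Members were taken by symbol from the deposited gene table: symbols beginning with Nduf (leaving out the Ndufaf assembly factors), Uqcr, Atp5, Cox4i, Cox5, Cox6, Cox7 or Cox8, together with Sdha, Sdhb, Sdhc, Sdhd, Cyc1 and Cycs. This gave 88 of the 18901 genes in the table: 40 with complex I symbols, 4 of complex II, 9 of complex III, Cycs for cytochrome c, 17 of complex IV and 17 of ATP synthase. Of the 88 genes, 86 had enough counts to be tested, and the other two were Ndufb4b with 5 counts and Cox7b2 with 2 counts over all mice.

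RNA was sequenced from 4 TBX20fl/fl;K14-Cre mice, called knockout mice here, and 4 TBX20fl/fl littermates, called control mice. Both groups carried the floxed Tbx20 allele, were female, were 7 weeks old and had received 10 µg of BNP into the cheek. In the knockout mice exons 2 to 3 of Tbx20 are removed by Cre under the keratin 14 promoter, so only keratinocytes are targeted while the RNA came from whole tissue. Mice without BNP were not analysed here, so the comparison asks how the genotypes differ in BNP-injected skin.

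The respiratory chain passes electrons from NADH and succinate to oxygen through complexes I to IV, with cytochrome c as the small carrier between complexes III and IV, and ATP synthase uses the resulting proton gradient to make ATP. Mitochondrial DNA encodes the catalytic centres of complex IV, several membrane subunits of complex I, cytochrome b of complex III and a pair of membrane subunits of ATP synthase, while the genes described here lie in the nucleus. In skin the chain serves keratinocytes and the other resident cells, and the skeletal muscle below cheek skin is among the tissues richest in it. A few complex IV subunits exist as isoforms typical of heart and skeletal muscle (Cox6a2, Cox7a1, Cox8b) beside widely expressed partners (Cox6a1, Cox7a2, Cox8a). Transcription of many of these genes is known to be driven by the factors NRF1, GABP (an ETS family factor that binds CCGGAAG) and YY1.

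RefSeq promoter windows of 300 bases, 250 before and 50 after the start on GRCm38.p6, were at hand for 71 of the 88 genes, as 76 windows. The NRF1 core GCGCATGC was present on either strand in 11 of the 76 windows (14.5%), against 3.96% of the 18621 windows of all genes in the table. The ETS motif CCGGAAG was present in 17 windows (22.4%, against 13.1%), and the YY1 motif AAGATGGCG in 7 windows (9.21%, against 2.07%). For CCAAT the share was 42.1% against 37.6%. The T-box motif AGGTGTG, which the study searched for near NPR1 and which was added here later, was found in 2 windows (2.63%), those of Ndufa1 and Ndufb4b, against 5.23% of all windows. These matches describe the letters in a window and are not binding sites.

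A few promoters are printed to show how these letters lie in 4 genes that results below describe, with Atp5j as an example of a YY1 match, and they were chosen after the matches were known. Capitals mark NRF1, ETS and YY1 matches, and the window of Cox8b, a muscle isoform, holds none of them. Cycs lies at chr6:50566520-50566819 on the reverse strand, Cox6a1 at chr5:115348909-115349208 on the reverse strand, Sdhb at chr4:140961021-140961320 on the forward strand, Atp5j (a stalk subunit of ATP synthase) at chr16:84834927-84835226 on the reverse strand and Cox8b at chr7:140900397-140900696 on the reverse strand.
Cycs: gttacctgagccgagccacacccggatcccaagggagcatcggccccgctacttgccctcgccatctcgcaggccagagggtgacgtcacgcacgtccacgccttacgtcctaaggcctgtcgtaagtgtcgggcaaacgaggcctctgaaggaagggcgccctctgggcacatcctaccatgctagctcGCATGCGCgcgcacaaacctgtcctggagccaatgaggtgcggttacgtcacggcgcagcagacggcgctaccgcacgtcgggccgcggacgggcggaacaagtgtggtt
Cox6a1: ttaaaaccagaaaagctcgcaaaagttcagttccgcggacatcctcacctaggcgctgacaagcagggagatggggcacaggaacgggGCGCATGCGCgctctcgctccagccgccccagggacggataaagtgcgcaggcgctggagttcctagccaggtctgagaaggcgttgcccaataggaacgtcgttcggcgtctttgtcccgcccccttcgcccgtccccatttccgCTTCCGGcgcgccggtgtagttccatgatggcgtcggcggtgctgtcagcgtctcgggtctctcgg
Sdhb: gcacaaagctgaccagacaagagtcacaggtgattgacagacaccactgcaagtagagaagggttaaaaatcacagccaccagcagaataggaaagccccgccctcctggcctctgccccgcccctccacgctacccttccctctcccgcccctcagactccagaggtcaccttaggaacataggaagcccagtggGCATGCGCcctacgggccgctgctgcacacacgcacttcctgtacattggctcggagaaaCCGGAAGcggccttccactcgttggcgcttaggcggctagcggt
Atp5j: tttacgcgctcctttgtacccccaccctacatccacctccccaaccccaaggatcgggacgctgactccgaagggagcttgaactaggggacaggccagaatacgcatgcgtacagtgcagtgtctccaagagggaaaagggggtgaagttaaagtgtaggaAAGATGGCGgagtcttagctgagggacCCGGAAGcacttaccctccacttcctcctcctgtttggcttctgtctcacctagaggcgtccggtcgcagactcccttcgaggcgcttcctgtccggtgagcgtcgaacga
Cox8b: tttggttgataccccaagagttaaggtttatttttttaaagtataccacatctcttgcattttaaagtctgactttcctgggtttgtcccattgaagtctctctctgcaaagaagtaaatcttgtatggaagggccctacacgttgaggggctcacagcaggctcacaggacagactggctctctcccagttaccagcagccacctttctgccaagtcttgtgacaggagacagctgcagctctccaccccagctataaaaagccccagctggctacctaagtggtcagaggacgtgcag
Cycs, Cox6a1 and Sdhb each hold an NRF1 match, Cox6a1 and Sdhb add an ETS match, and Atp5j has a YY1 and an ETS match but no NRF1 core in the window shown. The other RefSeq window of Atp5j, at chr16:84835576-84835875 on the reverse strand, holds none of the motifs searched.

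The deposited estimated counts summed to between 16056282 and 19880654 per mouse. Tbx20 had 0 to 2 counts in knockout mice and 0 to 3 counts in control mice, too few for the deletion to be seen in whole tissue. Control mouse 2 stood apart: it had the lowest total, a TMM scaling factor of 0.735 against 1.01 to 1.07 in the other mice, and a summed FPKM of 772536 against 521852 to 605508. Keratinocyte and skeletal muscle RNA were both abundant, with Krt14 between 1075 and 1572 FPKM and the muscle actin Acta1 between 2261 and 4086 FPKM. Ucp1, the defining gene of brown fat, did not exceed 0.07 FPKM. Since results below rest on control mouse 2, medians and log2 fold changes of the main edgeR fit are given with and without it.

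The subunit genes took 1.504%, 1.468%, 1.37% and 1.38% of all counts in knockout mice 1 to 4, and 1.46%, 2.56%, 1.71% and 1.51% in control mice 1 to 4. The mean log2 CPM over the 86 genes was 6.75 ± 0.10 (SD, n = 4) in knockout mice and 7.25 ± 0.62 (SD, n = 4) in control mice. Control 2 alone stood at 8.16, control 3 at 7.16 and the remaining control mice at 6.83 and 6.86, within or just above the knockout range of 6.67 to 6.85. Without control 2 the control mean was 6.95 ± 0.18 (SD, n = 3). In whole tissue, fewer cells of a type and less RNA per cell cannot be told apart.

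**Figure D1:**
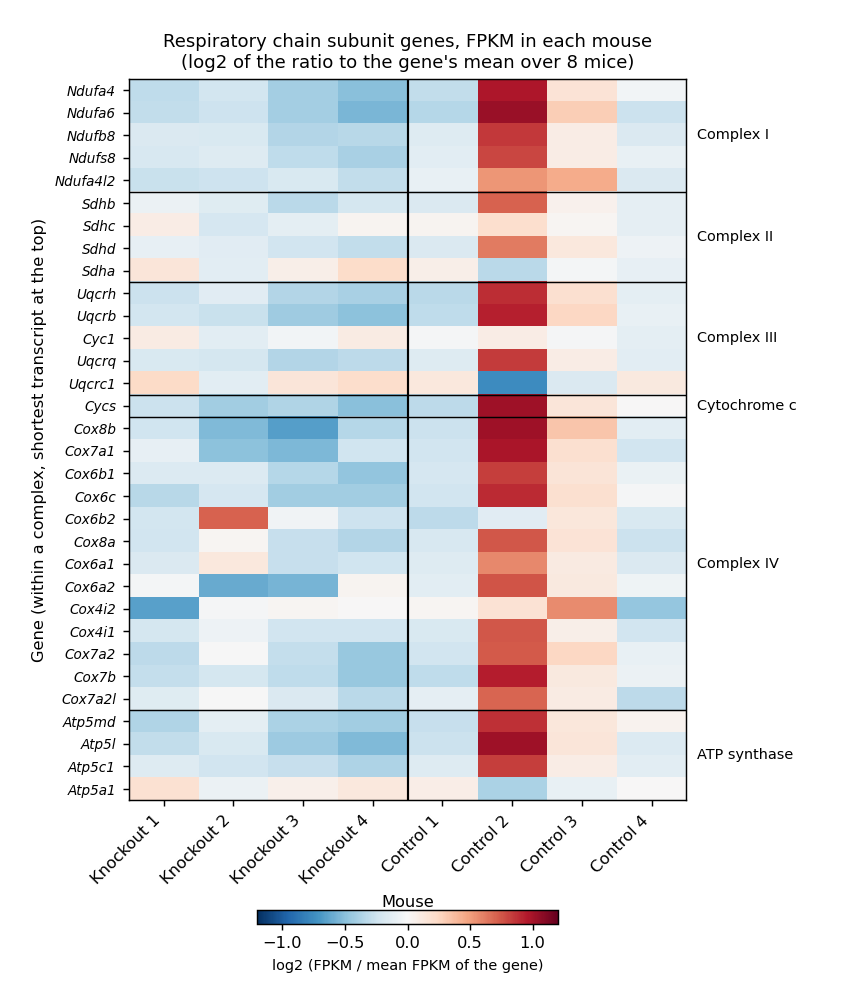
FPKM of 32 of the subunit genes (those named by rule and those with separate FPKM ranges) in each of the 8 mice (columns), as log2 of the ratio to the gene's own mean, with genes grouped by complex and ordered by transcript length within it. Control 2 is the column of high values, where 26 of the 32 genes have their highest FPKM, and it lies below the gene's mean for Sdha, Uqcrc1, Atp5a1 and Cox6b2.

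Of the 86 genes, 77 had their highest FPKM in control 2. Among the other 7 mice, 70 of the 86 were highest in control 3. The lowest FPKM fell in knockout 4 for 39 genes and in knockout 3 for 29. Control mice 2 and 3 thus held most of the highest values and knockout mice 3 and 4 most of the lowest.

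No subunit gene passed the threshold of an adjusted p-value of 0.05 in the quasi-likelihood test of edgeR, adjusted by Benjamini-Hochberg over 17124 genes, where 0.0% of all genes passed and the smallest adjusted p-value was 0.498. The median log2 fold change of knockout over control was -0.69 over the 86 genes, against 0.03 over all genes tested, and 82 of the 86 genes had a negative value. At an unadjusted p-value under 0.05 there were 26 subunit genes (30.2%), each lower in knockout mice, against a background of 5.91% of all genes lower at that level. Without control 2 the median was -0.22, 80 of 86 values were negative, and 12 of the 86 genes were lower at an unadjusted p-value under 0.05, against 4.5% of all genes. DESeq2 passed 0 subunit genes after adjustment, beside 10 of the 17124 genes (0.0584%), and 49 before it, beside 11.4% of all genes. By limma on log2(FPKM + 1) 0 passed after adjustment and 5 (5.81%) before it, beside 6.55% of all genes. A blocked edgeR fit on mouse numbers passed 0 subunit genes after adjustment and 14 before it, beside 10.1% of all genes before adjustment in either direction, and the median log2 fold change of the subunit genes was -0.55.

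On the FPKM scale, which is per length and scaled to the library total, 5 subunit genes (5.81%) had all 4 knockout values below all 4 control values, against 1.92% of the 15968 genes whose mean FPKM reached 0.1. Without control 2 the count was again 5, for the same genes, against 2.57%. Control 2 had the highest FPKM for 77 of the 86 genes, so leaving it out could hardly change this count. Other mice moved the count more: it was 15 without knockout 1, against 2.98% of all genes, 17 without knockout 2, against 6.08%, 30 without control 1, against 5.21%, and 8 without control 4, against 4.23%. None had all knockout values above the control values, with or without control 2, against 5.45% and 5.66% of all genes. The 5 genes were Ndufa4l2, Ndufs8, Ndufb8, Uqcrq and Atp5c1, of which the last 4 are named because of this pattern. Each had p = 0.0286 in the two-sided exact permutation test of the mean FPKM, the smallest that 4 against 4 mice can give. Separate ranges fix this value in advance, so it adds nothing to the pattern by which the genes were picked. After adjustment over all 15968 genes it was 0.388. The same exact test gave 0.0571 for Cox8b, Cycs, Ndufa4, Cox6c, Atp5l and Atp5md, and 0.398 after adjustment.

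The 39 tested genes with complex I symbols had a median log2 fold change of -0.69 with all 39 negative, and -0.22 without control 2. Complex I takes electrons from NADH, and its core subunits, such as Ndufs1 and Ndufv1, hold the flavin and the iron-sulphur clusters. Over 29 accessory subunits, a group made with the values known, the median was -0.71, and -0.22 without control 2, at a median transcript length of 632 bases, and -0.045 with the trend of each mouse with transcript length removed, as described below, or 0.006 with that trend removed and without control 2.

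Ndufa4, named for complex I but known as a subunit of complex IV, had the highest level, with 745, 786, 693 and 648 FPKM in knockout mice 1 to 4 and 749, 1799, 1031 and 899 FPKM in control mice 1 to 4. Control 1 fell inside the knockout range and the other control mice were above it. The log2 fold change was -0.90 (SE 0.36, edgeR adjusted p = 0.498), and -0.36 without control 2. Its paralogue Ndufa4l2, a gene induced in low oxygen that lies at chr10:127509274-127517154 on the forward strand, gave 27.4, 27.8, 29.1 and 26.9 FPKM in knockout mice and 31.0, 47.8, 44.9 and 29.3 FPKM in control mice. Knockout values lay close together and below every control value, while controls 2 and 3 were far above controls 1 and 4. Ndufa4l2 had a log2 fold change of -0.67 (SE 0.26, edgeR adjusted p = 0.498), and -0.38 without control 2.

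Ndufs8, a core subunit with iron-sulphur clusters, measured 102, 105, 94.9 and 89.2 FPKM in knockout mice and 107, 204, 125 and 110 FPKM in control mice. The highest knockout value and the lowest control value, 105 and 107 FPKM, lay close together. The log2 fold change was -0.72, and -0.27 without control 2. In contrast, Ndufv1, which binds the flavin, measured 97.1, 87.9, 86.6 and 92.0 FPKM in knockout mice and 94.8, 90.0, 88.8 and 84.6 FPKM in control mice, so the groups overlapped throughout and control 2 was not high on the FPKM scale. On TMM-scaled log2 CPM control 2 lay 0.51 above the mean of the other mice for Ndufv1, and the log2 fold change was -0.16 (SE 0.16, edgeR adjusted p = 0.595), and -0.021 without control 2. Ndufa6, an accessory subunit, had the largest complex I change at -0.93 (SE 0.39, edgeR adjusted p = 0.498), and -0.35 without control 2. For Ndufa6, controls 1 and 4, at 194 and 205 FPKM, lay inside the knockout range of 168 to 206 FPKM. Controls 2 and 3 lay above it, at 501 and 300 FPKM.

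Complex II, succinate dehydrogenase, also acts in the citric acid cycle, and its subunits showed the smallest median, -0.43, which became -0.12 without control 2. Sdhb, the iron-sulphur subunit, had 153, 145, 128 and 138 FPKM in knockout mice and 142, 261, 166 and 148 FPKM in control mice. Its log2 fold change was -0.59 (SE 0.30, edgeR adjusted p = 0.498), and -0.155 without control 2, and controls 1 and 4 lay among the knockout mice. Sdha, the flavoprotein, had 132, 109, 125 and 139 FPKM in knockout mice and 125, 95.0, 117 and 111 FPKM in control mice. Sdha had a log2 fold change of 0.009 (SE 0.15, edgeR adjusted p = 0.977), and 0.054 without control 2. Control 2 was the lowest mouse for Sdha on the FPKM scale, but on TMM-scaled log2 CPM it lay 0.145 above the mean of the other mice. Sdhc and Sdhd, the membrane anchors, had log2 fold changes of -0.29 and -0.58, and -0.08 and -0.21 without control 2.

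Complex III passes electrons from ubiquinol to cytochrome c. Over its 9 genes the median log2 fold change was -0.68, and -0.22 without control 2. The 5 small subunits (Uqcrb, Uqcrh, Uqcrq, Uqcr10 and Uqcr11) had a median of -0.75, and -0.25 without control 2. The catalytic and core subunits Cyc1, Uqcrfs1, Uqcrc1 and Uqcrc2 had a median of -0.35, and -0.037 without control 2. With the length trend removed these medians were -0.025 and 0.036, and -0.007 and 0.049 without control 2 as well. This grouping too was made with the values known. Uqcrh, the hinge protein and the highest of the 9, measured 437, 477, 410 and 399 FPKM in knockout mice and 420, 967, 601 and 482 FPKM in control mice, at a log2 fold change of -0.77, and -0.26 without control 2. Uqcrb gave -0.88 (SE 0.36, edgeR adjusted p = 0.498), and -0.36 without control 2. Uqcrq, with 80.8, 79.2, 71.9 and 73.4 FPKM in knockout mice and 82.1, 164, 97.6 and 83.8 FPKM in control mice, had separate groups by a gap of 82.1 against 80.8 FPKM, at a log2 fold change of -0.73, and -0.25 without control 2.

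The groups overlapped for Uqcrc1, a core protein of complex III, with 131, 102, 123 and 129 FPKM in knockout mice and 122, 65.9, 98.5 and 120 FPKM in control mice. Control 2 was the lowest and control 3 the next lowest. The log2 fold change of Uqcrc1 was 0.12 (SE 0.16, edgeR adjusted p = 0.675), the highest of the 86 genes in the fit of all mice, and 0.051 without control 2. Cyc1, the cytochrome c1 haem protein, varied little, between 110 and 129 FPKM over the 8 mice, at a log2 fold change of -0.16 (SE 0.18, edgeR adjusted p = 0.639), and 0.026 without control 2.

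Cycs, the somatic cytochrome c gene at chr6:50562563-50566569 on the reverse strand, had 123, 110, 114 and 103 FPKM in knockout mice and 118, 297, 162 and 148 FPKM in control mice. Control 1 lay among the knockout mice and the other control mice lay above all of them. The log2 fold change was -0.95 (SE 0.37, edgeR adjusted p = 0.498), and -0.39 (SE 0.14) without control 2. Of the 50-base stretches of annotated Cycs transcripts, 26.1% also occur in other annotated transcripts, so part of its reads could belong elsewhere.

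Complex IV, cytochrome c oxidase, transfers the electrons to oxygen. Its 16 tested genes had a median log2 fold change of -0.69, and -0.28 without control 2. Cox6c, the highest, measured 682, 747, 643 and 643 FPKM in knockout mice and 732, 1599, 981 and 853 FPKM in control mice. Control 1 fell inside the knockout range and the other control mice were above it. Its log2 fold change was -0.87 (SE 0.34, edgeR adjusted p = 0.498), and -0.38 without control 2. Cox4i1, the common form of the regulatory subunit 4, ranged from 596 to 671 FPKM in knockout mice and from 599 to 1178 FPKM in control mice, and Cox4i2, the lung-type form, from 2.30 to 3.67 and from 2.62 to 5.37 FPKM. Their log2 fold changes were -0.59 and -0.44, and -0.12 and -0.29 without control 2.

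The muscle isoforms made up 25.7% to 50.5% of the summed FPKM of their pairs in the 8 mice. Cox8b, which lies at chr7:140898942-140900446 on the reverse strand of GRCm38, had the largest negative value of the 86 genes, with 169, 138, 126 and 157 FPKM in knockout mice and 166, 403, 251 and 182 FPKM in control mice. Control 1 lay just under the highest knockout mouse and the other control mice lay above it. The log2 fold change of Cox8b was -1.03 (SE 0.37, edgeR adjusted p = 0.498), and -0.49 (SE 0.17) without control 2. Cox6a2 had 201, 135, 139 and 209 FPKM in knockout mice and 188, 346, 222 and 198 FPKM in control mice, at a log2 fold change of -0.72, and -0.29 without control 2. Cox7a1 had 119, 91.4, 88.1 and 108 FPKM in knockout mice and 110, 253, 146 and 110 FPKM in control mice, at a log2 fold change of -0.86, and -0.30 without control 2. For both genes knockout mice 2 and 3 were the lowest, and knockout mouse 1 lay among the control mice.

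Cox6a2 made up 43.4 ± 7.6% (SD, n = 4) of the summed FPKM of Cox6a1 and Cox6a2 in knockout mice and 47.3 ± 1.4% (SD, n = 4) in control mice, and knockout mice 2 and 3 were lowest at 33.8% and 41.0%. Cox8b made up 38.7 ± 4.6% (SD, n = 4) against 44.7 ± 2.46% (SD, n = 4) of the Cox8 pair, with knockout mice 1 and 4 at 42.4% and 42.7%, above control 1 at 41.3%. Cox7a1 made up 31.5 ± 5.11% (SD, n = 4) against 32.8 ± 2.55% (SD, n = 4). With control 2 left out the control shares were 46.7 ± 1.02% for Cox6a2, 43.8 ± 2.2% for Cox8b and 31.6 ± 1.05% for Cox7a1 (SD, n = 3). Knockout mouse 2 had the lowest share in all 3 pairs, and it also had the lowest mean log2 CPM of 22 skeletal muscle markers, 8.85 against 9.04 to 9.59 in the other mice. That marker list had a median log2 fold change of -0.08 between genotypes, and 0.013 without control 2. Of its 22 genes 10 were higher and 12 lower in knockout mice. Control 2 was the highest mouse for the marker Mylpf, at 5465 FPKM against 1890 to 3521 FPKM. It was the lowest for Myh4, at 107 FPKM against 221 to 554 FPKM. The list mean thus averages opposite deviations in control 2. With the mean of that list as a covariate, the log2 fold changes were -0.63 for Cox6a2, -0.78 for Cox7a1 and -0.96 for Cox8b (edgeR adjusted p = 0.62 for each).

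**Figure D2:**
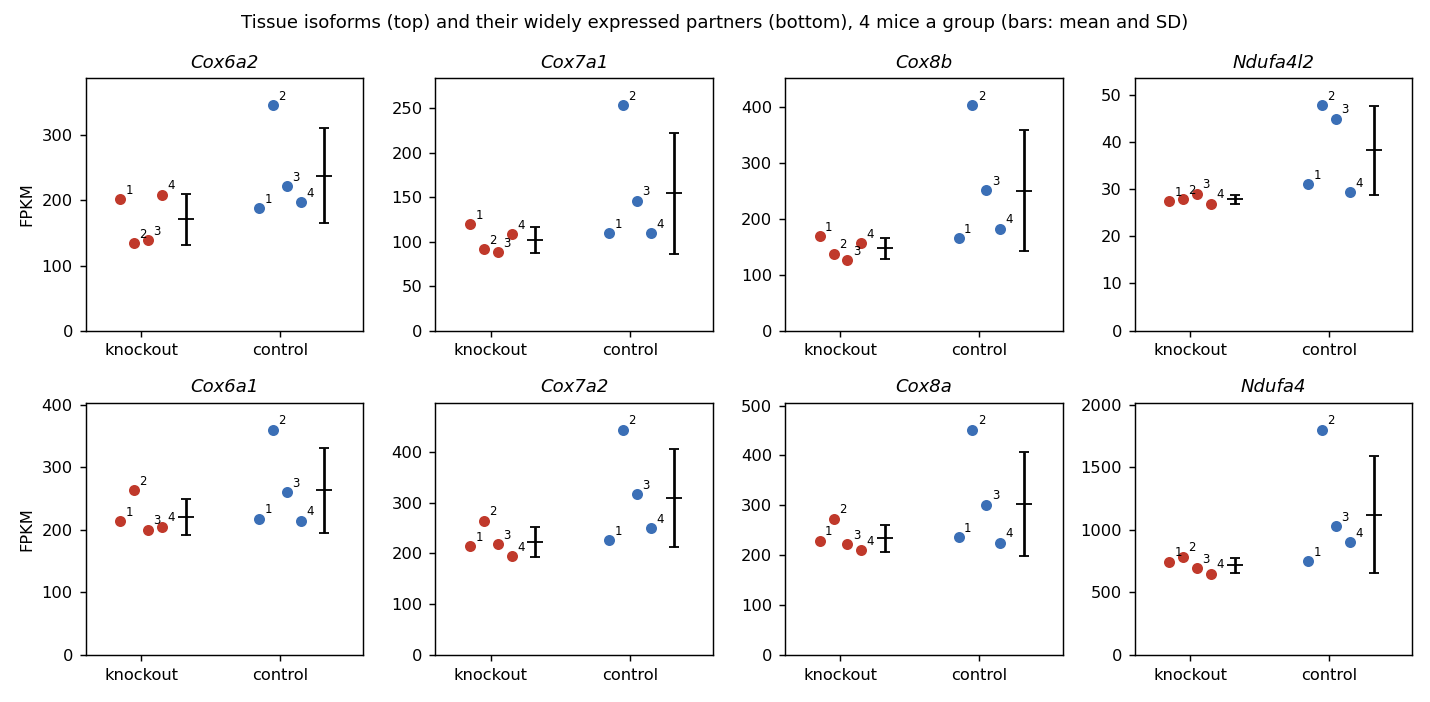
FPKM of the muscle isoforms Cox6a2, Cox7a1 and Cox8b and of Ndufa4l2 (top) and of their partners (bottom), with each dot a mouse labelled by its replicate number and bars showing the mean and SD of 4 mice. In each panel control 2 is the highest dot, and knockout mouse 2 is low for the muscle isoforms (138 FPKM for Cox8b) and the highest knockout mouse for the partners.

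Other isoforms of complex IV were scarce. Cox6b2, a form known from testis, had 2.58, 4.93, 2.92 and 2.54 FPKM in knockout mice and 2.43, 2.74, 3.30 and 2.65 FPKM in control mice, or 0.564% to 1.11% of the Cox6b pair in all mice but control 2, where it was 0.312%. Its log2 fold change was 0.059, and 0.165 without control 2. Cox7b2 had 1 count in each of knockout mice 2 and 4 and 0 counts in the other mice, under the floor of 3 counts. Cox6b1 and Cox7b, their common partners, had log2 fold changes of -0.76 and -0.83, and -0.29 and -0.28 without control 2. Cox7a2l, a factor that helps complexes III and IV join into supercomplexes, had -0.55 (SE 0.31, edgeR adjusted p = 0.499), and -0.11 without control 2.

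ATP synthase genes had the highest median level of the complexes, with a mean FPKM between 216 and 763 for each of the 17 genes. Their median log2 fold change was -0.72, and -0.22 without control 2. By position in the enzyme the median was -0.37 over the 5 genes of the catalytic head, -0.57 over the 3 genes of the c ring, -0.71 over 4 genes of the peripheral stalk and -0.82 over 5 small membrane subunits. These medians were -0.057, -0.14, -0.21 and -0.28 in the same order without control 2. With the length trend removed they were 0.073, 0.056, -0.11 and 0.01, and without control 2 as well 0.057, 0.076, -0.062 and -0.016, with no such order in either fit. Median transcript lengths in these groups were 1116, 669, 666.5 and 350 bases. The grouping was made with the values known.

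Atp5l, the membrane subunit g, had 623, 674, 565 and 530 FPKM in knockout mice and 638, 1548, 844 and 683 FPKM in control mice. Its log2 fold change was -0.90 (SE 0.38, edgeR adjusted p = 0.498), and -0.32 without control 2. Atp5md, another small membrane subunit, had -0.82 (SE 0.33, edgeR adjusted p = 0.498), and -0.34 without control 2. Atp5c1, the gamma subunit that turns inside the head, had 443, 422, 407 and 382 FPKM in knockout mice and 444, 880, 525 and 451 FPKM in control mice, with knockout 1 and control 1 nearly equal, at a log2 fold change of -0.73, and -0.24 without control 2. Atp5a1, the alpha subunit of the head, had 415, 349, 381 and 399 FPKM in knockout mice and 388, 282, 345 and 368 FPKM in control mice, with control 2 the lowest mouse on the FPKM scale and a log2 fold change of 0.00 (SE 0.15), and 0.03 without control 2.

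**Figure D3:**
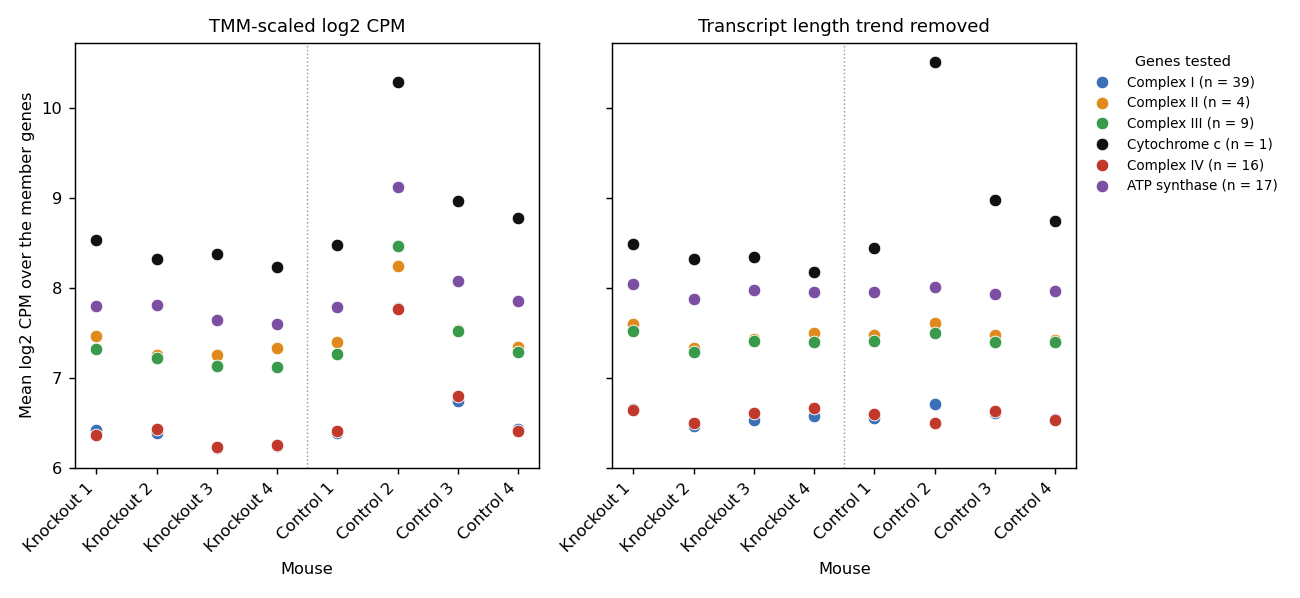
Mean log2 CPM over the tested genes of each complex in each of the 8 mice, TMM-scaled (left) and after removing each mouse's trend with transcript length (right), with each dot a complex. On the left control 2 is the highest mouse for each complex, and on the right the means lie together for each complex while Cycs stays high in control 2 at 10.5.

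The differences followed transcript length, taken as the length that the deposited counts and FPKM imply for each gene. The subunit genes are short, with a median of 656 bases, against 2760 bases over all genes. Across the 86 genes the log2 fold change rose with log2 length (Pearson's r = 0.51, Spearman's rho = 0.48, n = 86 genes that share the same 8 libraries), and the deviation of control 2 from the mean of the other mice fell with it (r = -0.52, rho = -0.48). Over the 13297 genes whose mean count reached 50, the same correlations were r = 0.60 for the fold change and r = -0.77 for control 2. Without control 2 the fold change had r = 0.46 and rho = 0.46 with length over the 86 genes, and r = 0.28 and rho = 0.47 over the 13297 genes. The deviation of control 3 also fell with length over the 86 genes (r = -0.47, rho = -0.50). Short transcripts in general were thus high in control 2, the library with the lowest total.

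Of those 13297 genes 84 were subunit genes, and they had medians near or below those of other genes of similar length up to 1590 bases. At up to 400 bases the median log2 fold change was -0.75 over 11 subunit genes and -0.71 over 49 other genes, and from 400 to 500 bases it was -0.81 over 15 and -0.72 over 82. From 500 to 750 bases it was -0.71 over 26 subunit genes and -0.66 over 330 other genes. From 750 to 1000 bases it was -0.68 over 8 and -0.54 over 489, and from 1000 to 1590 bases it was -0.57 over 15 and -0.36 over 1637. From 1590 to 2399 bases it was -0.07 over 5 subunit genes and -0.11 over 2652 other genes, and above that -0.36 over 4 subunit genes (Cycs, Ndufa11, Ndufs1 and Sdha) and 0.20 over 7974 other genes. The medians without control 2, in the same order, were -0.24, -0.28, -0.21, -0.21, -0.155, 0.03 and -0.093 over the subunit genes and -0.24, -0.25, -0.20, -0.17, -0.10, -0.033 and 0.069 over the other genes. In the fit of all mice, negative values made up 94.8% to 95.9% of the other genes up to 1000 bases, beside 100.0% of the subunit genes.

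**Figure D4:**
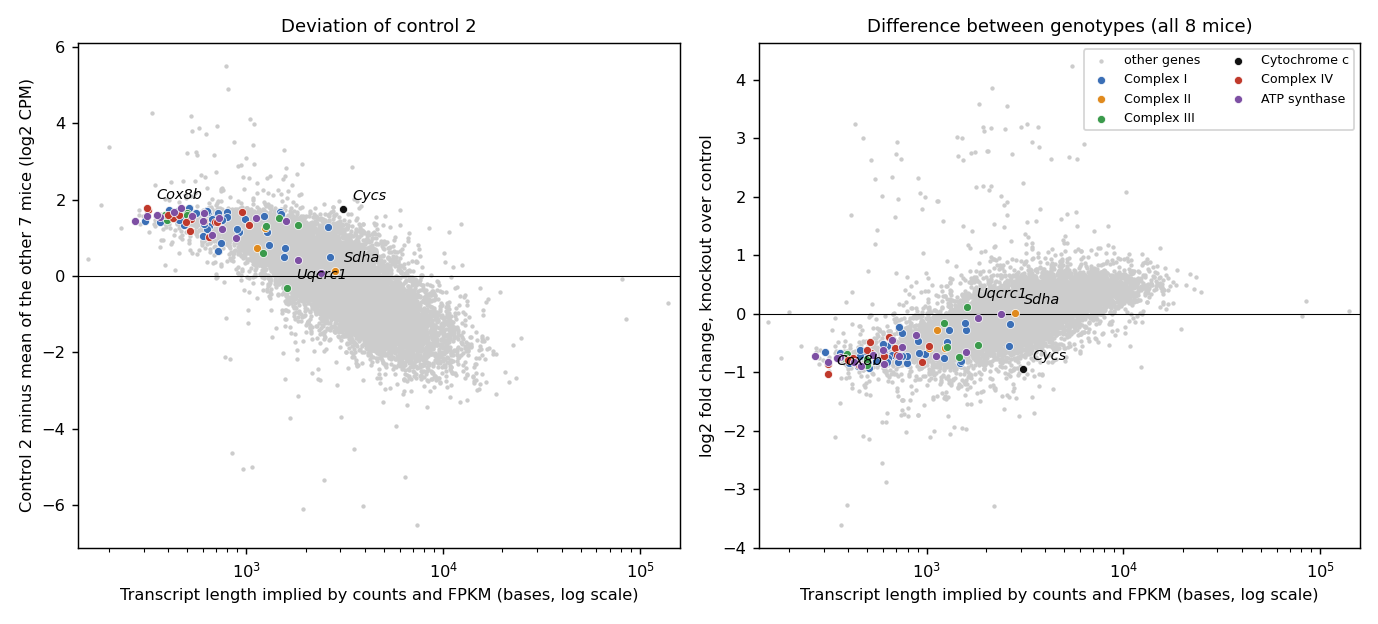
Deviation of control 2 from the mean of the other 7 mice in log2 CPM (left) and log2 fold change of knockout over control (right) against transcript length in bases on a log axis, for 13297 genes in grey and the subunit genes coloured by complex. The subunit genes lie in the cloud of other short genes, and Cycs, at 3105 bases, lies apart from genes of its length with a control 2 deviation of 1.77.

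When the trend with length was removed from each mouse before the same edgeR test, the median log2 fold change of the 86 genes was -0.01, 46 of them were negative and 40 positive, and 0 passed after adjustment. Among the 86 genes these values fell with log2 length (Pearson's r = -0.44, Spearman's rho = -0.32). The correction thus reversed their relation with length rather than ending it. The median by complex was -0.05 for complex I, -0.05 for complex II, -0.03 for complex III, 0.01 for complex IV and 0.02 for ATP synthase. With the trend removed, the mean log2 CPM over the 86 genes was 6.99 ± 0.08 (SD, n = 4) in knockout mice and 7.02 ± 0.05 (SD, n = 4) in the control mice with control 2 among them, or 6.995 ± 0.025 (SD, n = 3) in the other control mice. With the trend removed and without control 2 as well, the median of the 86 genes was -0.001, and the medians of complexes I to IV and of ATP synthase lay between -0.007 and 0.046. Cox8b went to -0.14 (SE 0.15), Ndufa4 to -0.12 (SE 0.10), Cox6c to -0.11 (SE 0.10) and Ndufa4l2 to -0.17 (SE 0.12), and without control 2 as well these genes had -0.15, -0.095, -0.12 and -0.20. Cycs had -1.08 (SE 0.41, edgeR adjusted p = 0.535) with the trend removed, and -0.40 (SE 0.14, edgeR adjusted p = 0.776) without control 2 as well. Of the 86 genes 1, Cycs, had an unadjusted p-value under 0.05 with the trend removed, beside 8.64% of all genes in either direction, and 1 did without control 2 as well, again Cycs, beside 6.33%.

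The control 2 deviation of Cycs, 1.77, was like that of the shortest genes, while its length in the deposited FPKM was 3105 bases. Its only coding transcript in the GENCODE annotation is 3123 bases long. Ndufa11, an accessory subunit of complex I with 2612 bases in the deposited FPKM and annotated coding transcripts of 493 to 918 bases, had a control 2 deviation of 1.29 and went from -0.55 to -0.54. Ndufs4 (1485 bases, with annotated coding transcripts of 716 to 1698 bases) and Uqcrq (1468 bases, annotated 405 to 1521 bases) went to -0.45 and -0.36. Without control 2 as well, the corrected values were -0.13 for Ndufa11, -0.18 for Ndufs4 and -0.15 for Uqcrq. For these genes the length used bears directly on the corrected value and on the FPKM level, and which transcript was present was not tested. Sdha, at 2810 bases, and Ndufs1, at 2662 bases, had control 2 deviations of 0.15 and 0.49 and corrected log2 fold changes of -0.02 and -0.17, and 0.059 and -0.023 without control 2 as well.

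**Figure D5:**
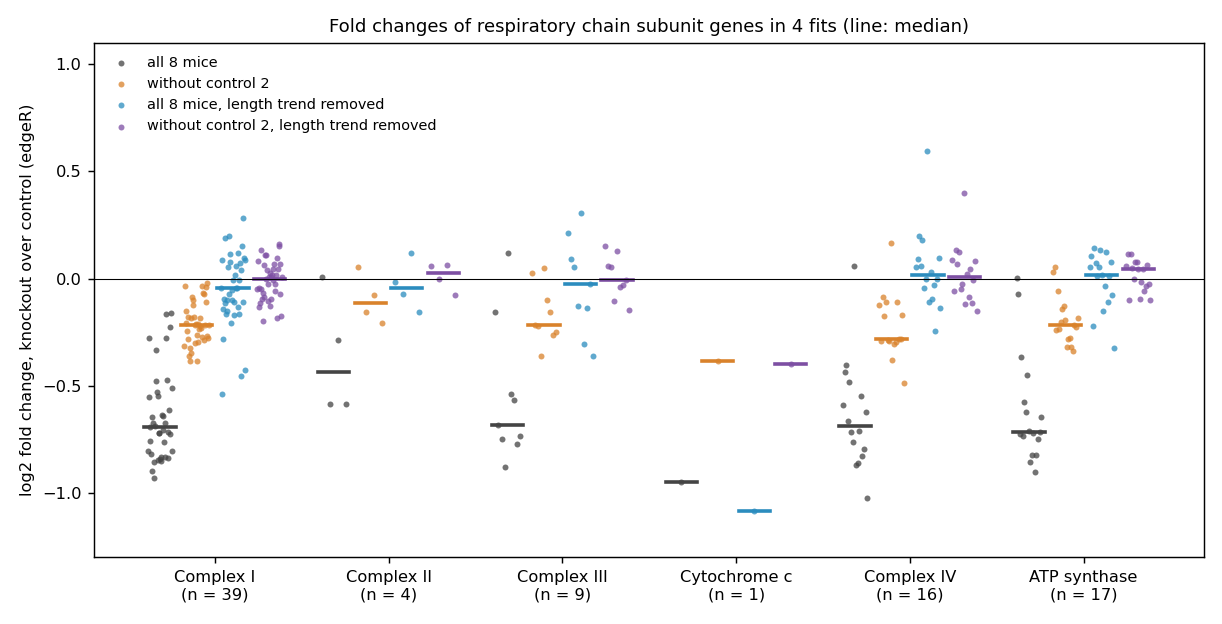
Log2 fold changes of knockout over control for each tested gene by complex, in edgeR fits of all 8 mice and without control 2, each before and after removing the length trend, where each dot is a gene and each line a median. The medians over the 86 genes are -0.69 with all mice, -0.22 without control 2, and -0.01 and -0.001 with the trend removed, while Cycs is at -0.95, -0.39, -1.08 and -0.40.

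Other mitochondrial gene groups, all encoded in the nucleus, were read from the same fit. Of 52 assembly factors of the respiratory chain, 43 had negative log2 fold changes (median -0.35, and -0.12 without control 2), and 0 passed the adjusted threshold. Of 78 proteins of the mitochondrial ribosome, 76 had negative values (median -0.52, and -0.16 without control 2), and of 19 carriers and outer membrane proteins 18 did (median -0.52, and -0.10). The 17 citric acid cycle enzymes, with a median length of 2355 bases, had a median of -0.26, and -0.06 without control 2, and 11 negative values. The 16 regulators of mitochondrial biogenesis, with a median length of 3791 bases, had a median of 0.16, and 0.10 without control 2, and 11 positive values. With the length trend removed the medians of these 5 lists lay between -0.08 and 0.09, or 0.006 and 0.058 without control 2 as well, and 0 genes passed in any of them by edgeR.

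The cytosolic ribosome, a group of similarly short transcripts (median 676 bases), had a median log2 fold change of -0.71, and -0.20 without control 2, beside -0.69 and -0.22 for the subunit genes. All 84 tested ribosomal protein genes had negative values. At an unadjusted p-value under 0.05 in edgeR 5 of these 84 genes were lower, near the 5.91% of all genes, beside 26 of the 86 subunit genes, and the difference between the groups was not tested. The summed FPKM of that list was 182400 in control 2 and 74790 to 115800 in the other mice. The respiratory subunits encoded by mitochondrial DNA were not analysed here.

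Marker lists of the cells in the tissue were read beside these values. Hair follicle markers had a median log2 fold change of 2.44, with knockout 2 at a mean log2 CPM of 6.77 against 1.22 to 4.20 in the other mice. Neutrophil markers had -0.94, T cell markers -0.65, mast cell markers -0.57 and macrophage markers -0.34, and control 2 had the highest mean of these 4 lists. Basal keratinocyte markers had 0.29, suprabasal keratinocyte markers 0.05, sebocyte markers -0.05, adipocyte markers 0.05, brown adipocyte markers -0.22, dermal fibroblast markers 0.34 and endothelial markers 0.32. Without control 2 the medians were 2.50 for hair follicle, -0.80 for neutrophil, -0.39 for T cell, -0.28 for mast cell and -0.21 for macrophage markers, and between -0.16 and 0.17 for the other 7 lists just named. No list had a gene past the adjusted threshold in edgeR's test, and apart from muscle the part of these cell types in the subunit values was not tested. With the mean of the muscle markers as a covariate, the median of the 86 genes was -0.65. At an unadjusted p-value under 0.05 in edgeR there were 2 of the 86 (2.33%), beside 5.15% of all genes in either direction. That mean averages opposite deviations of single markers in control 2, so what it measures there is uncertain.

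Reads of near-identical copies could be split between genes for a few members. Of 85 genes with an annotated transcript, 64 shared under 10% of their 50-base stretches with other genes. Ndufb4c, a processed copy of Ndufb4, shared 100.0% of its stretches with other genes, Ndufb4 among them, and its 58.3 to 171 FPKM are therefore uncertain.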

How the data were processed

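The study purified messenger RNA with oligo(dT) from the cheek of 4 TBX20fl/fl;K14-Cre and 4 TBX20fl/fl mice given BNP, and read 50 bases from a single end. Reads were cleaned by the authors with SOAPnuke, with -n at 0.05, -q at 0.2 and -l at 15, before HISAT alignment, and the quantifier is not given in the sources used here. The authors deposited estimated counts (expected counts), which are not normalized and of which 69.0% above 0 are not whole, and FPKM values made with Dr. Tom. The deposited FPKM are the counts divided by their sum in the mouse and by a length for each gene. For some genes, such as Ndufv3, the implied length was not the same in every mouse. The median over the mice gave the lengths used here. The authors also deposited TPM values and a signal in which each mouse's counts are scaled by its size factor, neither of which was used, nor were 51 columns of the authors' comparisons (log2 fold changes, p-values and q-values) and 40 columns of group means. Columns of per-sample values that could not be mapped numbered 0.

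Counts were rounded, the 17124 genes that reached 10 counts in all were kept, and genotypes were compared with edgeR 4.0.16 (TMM, quasi-likelihood test, Benjamini-Hochberg adjustment over all genes, threshold 0.05) in R 4.3.3. Dividing a log2 fold change by the root of its F statistic gave its standard error. FPKM values of genes whose mean FPKM reached 0.1 were compared by two-sided exact permutation tests over 70 assignments of the mice. Levels by mouse are log2 CPM with a prior count of 2. The length trend was a lowess fit with a span of 0.3 of each mouse's deviation in log2 CPM on log2 length, over genes whose mean count reached 50, entered as an offset. Totals of 16056282 to 19880654 counts put the floor of 3 counts at 0.151 to 0.187 CPM, for counting error only.

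Alternatives were DESeq2 1.42.0, limma 3.58.1 on log2(FPKM + 1), other scalings, no filter, a muscle covariate, a replicate block and fits without each mouse in turn. Same-numbered mice are different animals, but their deviations from the group means correlated at 0.405, 0.319, 0.331 and 0.160 for numbers 1 to 4, each over the limit of 0.1, so the numbers were treated as pairs in the replicate block. Unlike-numbered mice correlated at -0.518 to 0.426, the highest being knockout 4 with control 1, so not every mouse correlated best with its own number. Promoter windows came from RefSeq and annotated transcripts from GENCODE vM21, and 71 of 88 and 85 of 88 genes matched by identifier or symbol. Atp5a1 and Uqcrc1 are listed on patch sequences and have no coordinates here. Named genes were the highest, the most changed and the smallest p-value of each prefix group, the 5 smallest p-values in each direction, all complex II genes, Cyc1, Cycs and the complex IV isoforms. The members and lists were chosen with earlier results of these data known. The edgeR and DESeq2 fits were also run on simulated counts. Those counts held no length trend and no deviant library, so they cannot check the fits against either. Python 3.11.15, pandas 2.3.3 and numpy 2.4.6 were used for summaries.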

Additional observations from a re-analysis of the deposited data

Results flagged for a closer look

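Of 72 groups of 4 mice examined, 58 for the FPKM of the 29 named genes and 14 for mean log2 CPM over all subunit genes and over each complex, 4 held a mouse far from the others by Dixon's criterion at the 95% level, about the 3.6 that chance gives at 1 in 20. In knockout mouse 2, Atp5md reached 380.92 FPKM against 310 to 322 FPKM in the other knockout mice, Cox4i1 reached 671.48 FPKM against 596 to 607 FPKM, and Cox6b2 reached 4.93 FPKM against 2.54 to 2.92 FPKM. In knockout mouse 1, Cox4i2 was at 2.30 FPKM against 3.58 to 3.67 FPKM. Control 2 gave 0 of these, though it had the highest FPKM for 77 of the 86 genes. Within 4 mice the criterion weakens when another mouse, here control 3, is raised as well.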

How the results depend on the processing

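The median log2 fold change of the subunit genes was -0.69 with all mice. It was -0.72 with DESeq2 or its size factors, -0.65 with the muscle covariate, -0.55 with the replicate block and -0.45 with library totals only, a scaling added after seeing the data that moved the median of all genes to 0.17. On log2(FPKM + 1) with limma it was -0.39, beside 0.12 over all genes. It came to -0.22 without control 2, -0.013 with the length trend removed, -0.016 with the length trend removed and the replicate block, and -0.001 with the length trend removed and without control 2, and leaving out each mouse gave -0.85 to -0.22. The subunit genes past the adjusted threshold numbered 0 under all 18 alternatives. The paired fit with the replicate block changed no call, with 14 subunit genes at an unadjusted p-value under 0.05 by edgeR and 0 adjusted.

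Subunit genes with all knockout FPKM below the control values numbered 5, and 5 to 30 when each mouse was left out: 15 without knockout 1 (17.4%, beside 2.98% of all genes), 17 without knockout 2 (19.8%, beside 6.08%), 30 without control 1 (34.9%, beside 5.21%) and 8 without control 4 (9.3%, beside 4.23%). Those above numbered 0 to 2, with 2 without knockout 2, beside 10.2% of all genes. A group of 3 mice overlaps less readily by construction.

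Among the named genes, 44 of 504 log2 fold changes under alternatives changed sign. With the length trend removed the value was 0.010 for Atp5md, 0.055 for Cox4i1, 0.090 for Cox4i2, 0.179 for Cox6a1, 0.000 for Cox6b1, 0.029 for Cox7a1, 0.095 for Cox8a, 0.211 for Cyc1, -0.017 for Sdha and 0.118 for Sdhc. With the replicate block added it was 0.012 for Atp5md, 0.056 for Cox4i1, 0.117 for Cox4i2, 0.182 for Cox6a1, 0.001 for Cox7a1, 0.097 for Cox8a, 0.209 for Cyc1, -0.015 for Sdha and 0.114 for Sdhc. With the length trend removed and without control 2 it was 0.086 for Cox4i1, 0.124 for Cox6a1, 0.023 for Cox7a1, 0.045 for Cox7a2l, 0.081 for Cox8a, 0.154 for Cyc1 and 0.064 for Sdhc. Atp5a1 and Sdha had -0.014 and -0.009 with DESeq2 or its size factors. Cyc1 had 0.034 with library totals and 0.024 with limma, and Cox6b2 had -0.057 with the muscle covariate. With each mouse left out, values ran from -0.048 to 0.051 for Atp5a1, from -0.038 to 0.076 for Sdha, from -0.215 (without knockout 2) to 0.174 for Cox6b2, and from -0.239 to 0.026 (without control 2) for Cyc1. Medians of the companion lists moved by more than the spread in 36 of 323 values. The cause of these changes was not tested.

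Limits are the 4 mice a group, control 2, and the lengths taken from the deposited FPKM, which do not show which transcript of a gene was sequenced.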
